A study of Mus musculus with 58 samples.

Results

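The genes of the cytosolic ribosomal proteins were followed in microglia, the resident macrophages of the brain, sorted from mouse forebrain. They were taken by symbol: names that begin with Rpl or Rps and a number, the stalk genes Rplp0, Rplp1 and Rplp2, and Rpsa, without the S6 kinase genes (Rps6k), pseudogene symbols and symbols that end in l after a number, and with a mean of at least 10 counts per library in the count table used. Of 25387 symbols in the series, 84 met this rule in at least 1 of 3 count tables and 78 met it in all of them. The rule kept 79 of 24940 genes listed in the age series, 82 of 10277 in the wild-type oligonucleotide series and 84 of 10589 in the SgshKO oligonucleotide series. Rpl23a, Rpl27, Rpl36a and Rpl38 matched by name in the age series but had fewer than 10 counts on average. Rps19bp1, which matches by name but encodes a protein that binds a ribosomal protein and not a ribosomal protein itself, is given apart, which leaves 78, 81 and 83 genes. In the age series these were 39 genes of the large subunit, 31 of the small subunit, 3 of the stalk, 3 paralogs (Rpl7l1, Rpl22l1 and Rpl36al) and 2 retroposed copies (Rpl37rt and Rps27rt).

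All mice were C57BL/6, and the cells of all 58 libraries were sorted as CD11b+, CD45low and CX3CR1+. SgshKO mice carry a knockout of Sgsh, which encodes a lysosomal sulfatase needed to break down heparan sulfate. They were set against wild-type (WT) mice in 7 libraries at 3 weeks (3 of them WT), in 4 at 4 months (2 of them WT) and in 11 at 8 months (4 of them WT). Antisense oligonucleotides (ASOs), which lower a chosen transcript, were injected once into the brain ventricles, 14 days before the cells were sorted. There were 4 libraries each of WT mice given PBS, the control ASO that the labels call ntc, the Mitf ASO, the Tfeb ASO and the Tfe3 ASO, and 8 libraries each of SgshKO mice given the control ASO and a combination of the Mitf and Tfe3 ASOs. The labels give neither the age of the ASO-treated mice nor the sex of any mouse, and they do not say which of the 2 RNA kits and 2 sequencers served a library or which animals it came from, so that the p-values measure the spread between these libraries, which may be partly technical.

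A ribosome is built from a large and a small subunit, each a scaffold of ribosomal RNA that carries a fixed set of proteins, most of them encoded by a single active gene. The mRNAs of these proteins begin with a run of pyrimidines, the terminal oligopyrimidine (TOP) tract, through which the kinase complex mTORC1 and the RNA-binding protein Larp1 set how strongly they are translated and how stable they are. Translation factors such as Eef1a1 carry the same tract, whereas the ribosomal proteins of mitochondria are a separate family. The genome also holds many processed copies of ribosomal protein genes, so that short reads can match several places and a count depends on how such reads were assigned.

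The start of the transcripts was read first, because the TOP tract is the sequence feature the members are known to share. RefSeq starts on GRCm38.p6 were available for 62 of 83 genes. A tract, here a C at the annotated start followed by at least 4 bases that are each C or T, read on the transcribed strand only, lay at a listed start of 14 of these (22.6%) and of 813 of 27025 genes with a promoter entry (3.01%). Such a run began within 10 bases of a listed start in 36 of 62 (58.1%) and in 34.4% of all genes. The windows below hold 15 bases before and 15 bases from the start, with the tract in capitals. They show 6 members with a tract and 2 with none at the annotated start. These 2, Rps4x and Rps2, were higher in SgshKO at all 3 ages by the tests below. In the Rps2 window such a run begins within 10 bases of the start. The windows are listed in the order of their positions. They lie at chr4:86857353-86857382 (Rps6, minus strand), chr14:18270972-18271001 (Rpl15, minus), chr7:141447636-141447665 (Rplp2, plus), chr17:33955651-33955680 (Rps18, minus), chr11:114668565-114668594 (Rpl38, plus), chr16:33056467-33056496 (Rpl35a, plus, 1 of 3 listed starts), chrX:102189377-102189406 (Rps4x, minus) and chr17:24720048-24720077 (Rps2, plus).
Rps6: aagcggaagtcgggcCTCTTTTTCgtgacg
Rpl15: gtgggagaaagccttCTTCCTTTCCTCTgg
Rplp2: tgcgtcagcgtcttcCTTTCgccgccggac
Rps18: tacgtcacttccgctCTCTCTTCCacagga
Rpl38: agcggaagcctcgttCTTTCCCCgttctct
Rpl35a: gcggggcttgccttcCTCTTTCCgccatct
Rps4x: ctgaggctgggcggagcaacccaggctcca
Rps2: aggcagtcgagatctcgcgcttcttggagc

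Library totals ran from 8191508 to 27106584 counts in the age series and from 12517838 to 30431437 in the ASO tables. All 12 microglia markers were detected in every library of the age series. Sgsh itself was lower in SgshKO at 8 months by the test (20.1 to 34.7 CPM, counts scaled to the size of the library with TMM factors, against 31.9 to 59.2 in WT) but overlapped with WT at every age except 4 months (22.9 and 30.3 against 30.7 and 39.4), and no label says which part of the gene was removed. Each ASO lowered its target in WT, Mitf from a mean of 43.7 to 1.58 CPM, Tfeb from 54.9 to 5.80 and Tfe3 from 198 to 38.1. In SgshKO the combination lowered Mitf from 72.4 to 15.3 and Tfe3 from 170 to 80.4. The 3 tables were normalised separately and no test was made across them.

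As a share of all counts in a library, the ribosomal protein genes had similar levels at the 3 ages in WT and higher levels in SgshKO, most of all at 8 months. In WT they took 0.235% to 0.284% of counts at 3 weeks, 0.262% and 0.284% at 4 months and 0.234% to 0.267% at 8 months. In SgshKO they took 0.249%, 0.397%, 0.436% and 0.356% in replicates 1 to 4 at 3 weeks, 0.476% and 0.512% at 4 months, and 0.496% to 0.718% with a median of 0.586% at 8 months. Every SgshKO library at 4 and 8 months thus lay above every WT library, while at 3 weeks replicate 1 lay among the WT libraries. The mean share in SgshKO was 1.35 times that of WT at 3 weeks, 1.81 times at 4 months and 2.34 times at 8 months. The mitochondrial ribosomal proteins, measured the same way, had group means of 0.107% to 0.127% in all 6 groups. The ratio of small-subunit to large-subunit counts was taken without the stalk genes, paralogs and retroposed copies. It was 0.842 to 0.923 in WT (mean 0.894) and 0.826 to 0.984 in SgshKO (mean 0.917) at 3 weeks, where the groups overlapped. At 4 months it was 0.859 and 0.864 in WT and 0.911 and 0.922 in SgshKO. It was 0.851 ± 0.0125 (SD, n = 4) in WT and 0.954 ± 0.0276 (n = 7) in SgshKO at 8 months, with no overlap between the groups.

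**Figure D1:**
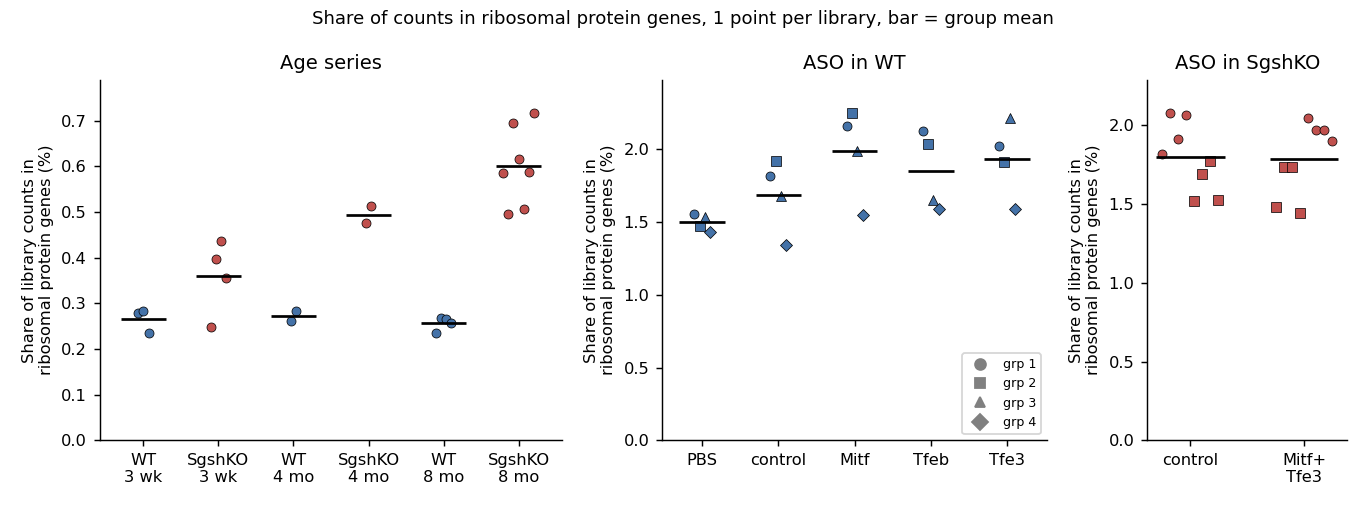
Share of each library's counts that fell in ribosomal protein genes (%, linear axis from 0), with 1 point per library and a bar at the group mean, in the age series, the WT ASO libraries and the SgshKO ASO libraries; in the ASO panels the symbol gives the number called grp in the titles. The SgshKO libraries at 4 and 8 months all lie above the WT libraries, and the grp 4 libraries lie lowest in each WT ASO group.

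At 3 weeks 16 of 78 members were higher in SgshKO and none was lower, by edgeR's quasi-likelihood test with a Benjamini-Hochberg adjusted p below 0.05. Over all 14309 genes tested, 5.31% were called higher and 3.72% lower. The median log2 fold change was 0.45 over the members and -0.02 over all genes, and 73 of the 78 estimates were positive. Of these calls 7 were among the 39 large-subunit genes, 7 among the 31 small-subunit genes and 2 among the 3 stalk genes. In 15 members every SgshKO library lay above every WT library, against 10.9% of all genes.

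The members with the largest called changes at 3 weeks were Rpl39, which lines the exit tunnel of the large subunit, Rps20, Rpl26, the stalk protein Rplp1 and Rps26. Rpl39 measured 11.1, 7.64 and 9.49 CPM in WT and 13.1, 17.6, 20.5 and 14.6 in SgshKO. All 4 SgshKO libraries were above the 3 WT libraries, and the log2 fold change came to 0.80 ± 0.17 (SE; adjusted p = 0.0023). Rps20, a small-subunit protein, measured 29.2, 29.8 and 17 CPM in WT and 31.5, 45.6, 59.8 and 36.6 in SgshKO (0.77 ± 0.19, adjusted p = 0.00997). Rpl26, Rplp1 and Rps26 had log2 fold changes of 0.73, 0.72 and 0.67. Replicate 1 of SgshKO was again the lowest of its group for Rpl39, Rps20 and Rpl26.

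That library also had the highest summed level of 13 genes induced by tissue dissociation, 24863 CPM against 5327 to 11541 in the other SgshKO and 5404 to 8581 in the WT libraries of that age. The part this plays in its low share was not tested. At the later ages these genes summed to less in SgshKO, with 15277 and 17534 CPM against 20657 and 26981 in WT at 4 months, and 5383 to 9062 (median 6764) against 9038 to 11284 (median 9903) at 8 months, and their part in the results of those ages was not tested either. At 3 weeks 38 members were called without SgshKO replicate 1 of that age. Without SgshKO replicate 2 or 3, 9 were called, and without WT replicate 1 or 3, 8 and 7. Rpl26, Rpl39, Rpl4, Rps2 and Rps4x were called in each of the 7 fits that left out 1 library.

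At 4 months 40 of 78 members were called higher in SgshKO and none lower, against 10.3% of all genes called higher and 9.26% called lower. The median log2 fold change was 0.82 over the members and 0.02 over all genes. The calls comprised 21 large-subunit, 17 small-subunit and 2 stalk genes. With 2 libraries per group, 59 members had both SgshKO libraries above both WT libraries and 8 had both below, while 29.8% and 28.3% of all genes did so. All 4 fits that left out 1 library called fewer members, 20 without WT replicate 1, 21 without WT replicate 2, 24 without SgshKO replicate 1 and 21 without SgshKO replicate 2, and 17 members were called in each of them.

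The largest called change at 4 months was that of Rpl35a, a large-subunit protein with a TOP tract at a listed start, at 2.25 and 2.15 CPM in WT and 11.5 and 6.28 in SgshKO. It differed by 2.01 ± 0.42 on the log2 scale (SE, adjusted p = 0.0013). Rpl13 rose from 4.73 and 4.16 CPM to 12 and 13.3, by 1.52 on the log2 scale, and Rpl39, Rpl21 and Rpl32 rose by 1.45, 1.27 and 1.20. Rps16, whose tail reaches the tRNA in the decoding centre, was not detected in either SgshKO library, where 0 counts allow up to 0.366 and 0.267 CPM (3 counts, counting error only), and stood at 0.473 and 0.43 CPM in WT. That difference did not pass the test.

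At 8 months 59 of 78 members were called higher in SgshKO and 1 lower, against 21.6% of all genes called higher and 18.9% called lower. The median log2 fold change was 1.23, a 2.35-fold difference, over the members and 0.02 over all genes tested. Called higher were 29 of 39 large-subunit genes, 24 of 31 small-subunit genes, all 3 stalk genes, 2 of 3 paralogs and 1 of 2 retroposed copies. In 58 members all 7 SgshKO libraries lay above all 4 WT libraries, against 14% of all genes. The call held for 57 members under every setting and every left-out library.

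**Figure D2:**
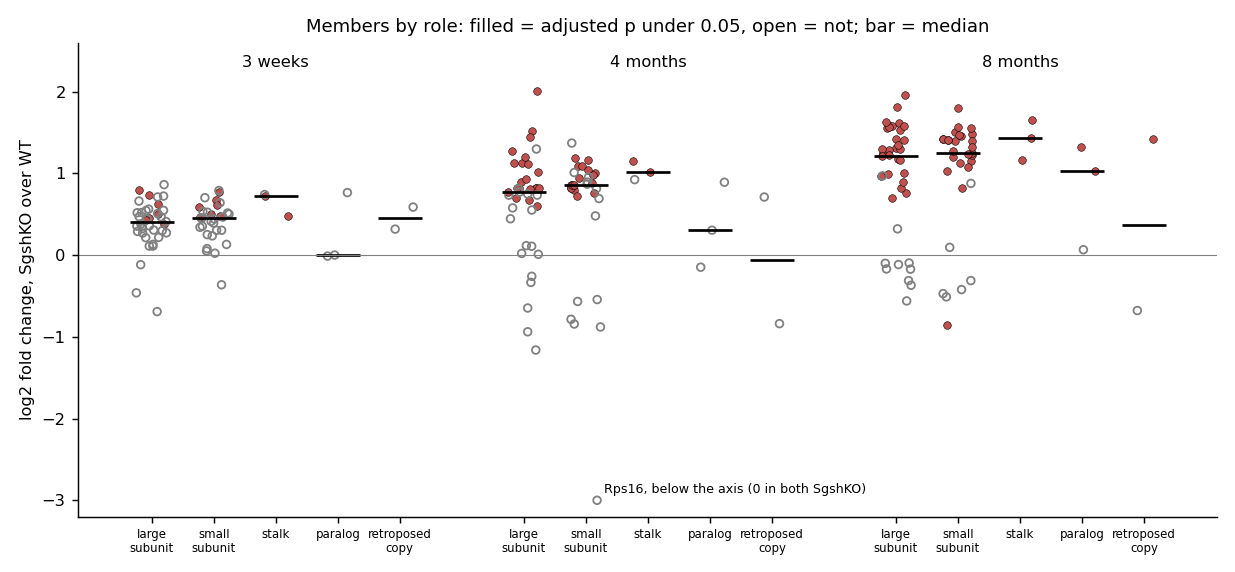
Log2 fold change of SgshKO over WT for each member at 3 weeks, 4 months and 8 months, grouped by role; filled points have an adjusted p below 0.05, open points do not, and bars are medians of the role, with Rps16 at 4 months, at 0 in both SgshKO libraries, placed at the lower edge. At 8 months the stalk genes run from 1.16 to 1.66 and most members of either subunit lie at 0.70 or above.

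The stalk is the flexible arm of the large subunit that recruits the elongation factors: Rplp0 anchors it, and Rplp1 and Rplp2 are its acidic, mobile proteins. Rplp0 measured 141, 133, 137 and 151 CPM in WT and 276 to 351 with a median of 317 in SgshKO at 8 months. The groups did not overlap, and the log2 fold change was 1.16 ± 0.10 (SE, adjusted p = 1.7e-09), after 0.47 at 3 weeks and 1.02 at 4 months. Rplp1, the member with the highest level per length in the age series (a mean of 1117 TPM, a count scaled by transcript length and library), measured 170 to 213 CPM in WT and 417 to 769 with a median of 590 in SgshKO. Its log2 fold change was 1.66 ± 0.17 (adjusted p = 1.9e-08). Rplp2 measured 30.2, 44.1, 34.4 and 33.9 CPM in WT and 65.6 to 139 with a median of 92.4 in SgshKO, a log2 fold change of 1.44 ± 0.23 (adjusted p = 1.6e-05). It did not pass at 3 weeks (0.74, adjusted p = 0.099) or 4 months (0.92, adjusted p = 0.075).

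In the small subunit Rps4x, encoded on the X chromosome, had the smallest p-value of all members, with 48.9, 52.2, 55.6 and 53.7 CPM in WT and 112 to 160, median 147, in SgshKO at 8 months. It differed by 1.42 ± 0.09 on the log2 scale (SE, adjusted p = 3.7e-12), after 0.51 at 3 weeks and 1.19 at 4 months. Rps28 rose most among the small-subunit genes, from 4.86 to 7.41 CPM in WT to 13 to 27.5, median 22.3, in SgshKO (1.80 ± 0.22, adjusted p = 4.9e-07). Rpsa, also known as the laminin receptor precursor, rose by 1.32 on the log2 scale. Rps6, the target of the S6 kinases downstream of mTORC1, measured 4.51, 3.64, 3.54 and 2.74 CPM in WT and 5.46 to 10, median 8.12, in SgshKO, and differed by 1.20 ± 0.26 at 8 months (adjusted p = 0.00057). At 3 weeks its estimate was 0.02 (adjusted p = 0.99) and at 4 months 1.01 (adjusted p = 0.085).

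Rps27a, which encodes a ubiquitin fused to a small-subunit protein, was the only member called lower at 8 months. It measured 2.84, 2.91, 3.07 and 6.9 CPM in WT and 1.52 to 2.87 with a median of 2.39 in SgshKO, and the groups overlapped. The log2 fold change was -0.85 ± 0.32 (adjusted p = 0.034), on a mean of only 44.0 counts per library, and WT replicate 4 stood apart. It is not among the 57 members called under every setting.

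In the large subunit Rpl37a and Rpl41, both short proteins, had the largest changes of all members at 8 months. Rpl41 measured 13, 24.5, 24.6 and 16.8 CPM in WT and 43.9 to 97.9 with a median of 66.6 in SgshKO. The log2 fold change was 1.81 ± 0.25 (SE, adjusted p = 3e-06) for Rpl41 and 1.97 ± 0.24 (adjusted p = 4.3e-07) for Rpl37a. Rpl39 followed with 1.63 ± 0.14. Rpl4, a tunnel protein with the third highest level per length after Rplp1 and Rps9, measured 217, 236, 232 and 240 CPM in WT and 438 to 596 with a median of 536 in SgshKO. Its change was 1.16 ± 0.08 (adjusted p = 1.6e-11), after 0.45 at 3 weeks and 0.82 at 4 months.

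**Figure D3:**
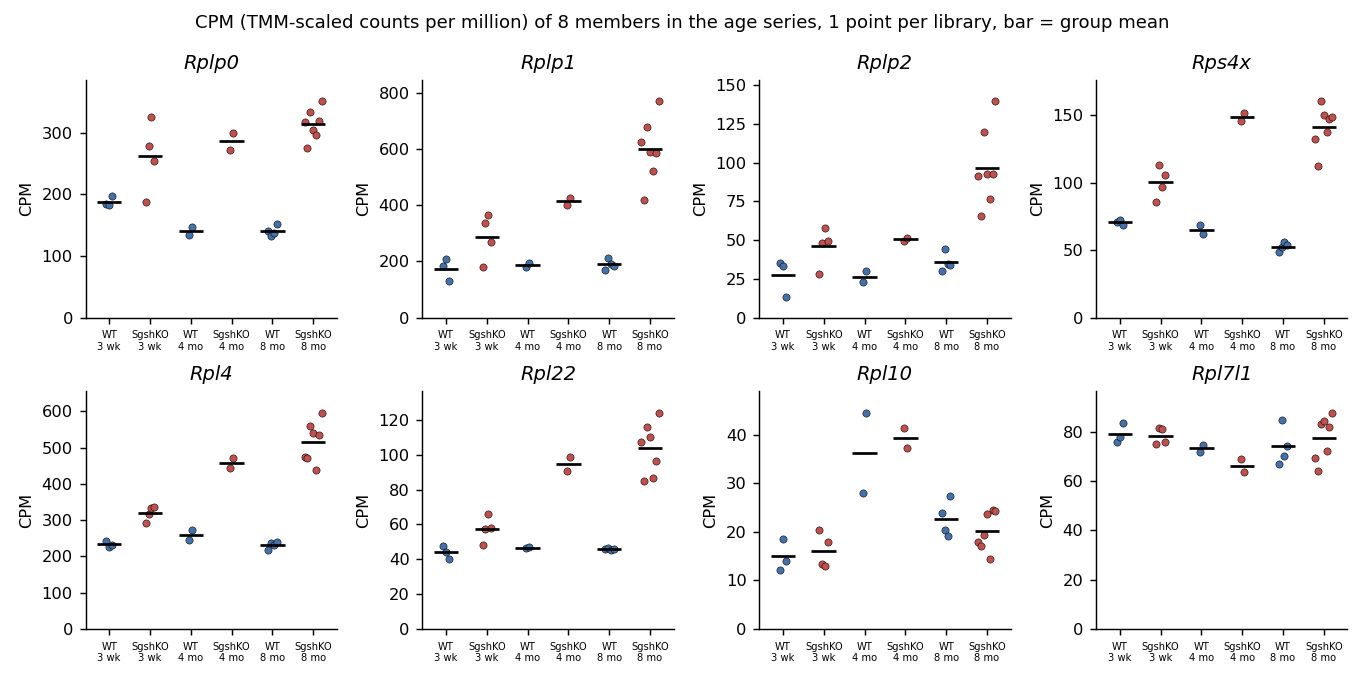
CPM (TMM scaling, linear axes from 0) of 8 members in the 22 libraries of the age series, 1 point per library and a bar at the group mean. Rplp0, Rplp1, Rplp2, Rps4x, Rpl4 and Rpl22 are higher in all 7 SgshKO libraries at 8 months than in the 4 WT libraries, whereas Rpl10 and Rpl7l1 overlap.

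Among the paralogs, Rpl22 and Rpl22l1 encode exchangeable versions of one large-subunit protein. Rpl22 stood at 45.3 to 46.6 CPM in WT and 85 to 124 with a median of 108 in SgshKO at 8 months, a log2 fold change of 1.18 (SE 0.10), and Rpl22l1 rose by 1.03 ± 0.24 (adjusted p = 0.0011). Rpl7 rose by 1.21, whereas Rpl7l1, a related protein that works in the assembly of ribosomes, stayed between 63.9 and 87.8 CPM in all 22 libraries and had estimates of -0.01, -0.15 and 0.07 at the 3 ages. With a mean of 1240 counts and an SE of 0.08 at 8 months (adjusted p = 0.57), its estimate is more precise than that of most members. At 8 months Rpl36al measured 3.01 to 6.75 CPM in WT and 6.86 to 16.3 in SgshKO (1.33 ± 0.26, adjusted p = 0.00024), and had estimates of 0.00 and 0.31 at the earlier ages. Its partner Rpl36a had too few counts in the age series. Rps19bp1 had estimates of -0.49, -0.28 and -0.07 and passed at no age.

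Of 78 members, 18 did not pass at 8 months, with a median of -0.17 and a range of -0.68 to 0.97, and 13 of them had fewer than 100 counts per library. Grouped by mean counts, 5 of 19 members with 10 to 100 counts were called higher (median log2 fold change -0.10), 21 of 24 with 100 to 500 (1.34) and 33 of 35 with more (1.30). The 5 that had more than 100 counts and did not pass were Rpl7l1, Rpl10, Rpl10a, Rpl5 and Rpl12. Rpl10, which joins the large subunit last and must be in place before it can meet the small subunit, measured 23.8, 20.4, 19.1 and 27.4 CPM in WT and 14.4 to 24.5 in SgshKO (-0.17 ± 0.17, adjusted p = 0.46). Rpl5, which binds the smallest rRNA of the large subunit together with Rpl11, had -0.10 ± 0.15 and Rpl10a -0.12 ± 0.15. These estimates lie below those of all 59 members called higher, of which the smallest was 0.70. Rpl10, Rpl10a, Rpl5 and Rpl12 were named for their counts after the values had been seen.

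**Figure D4:**
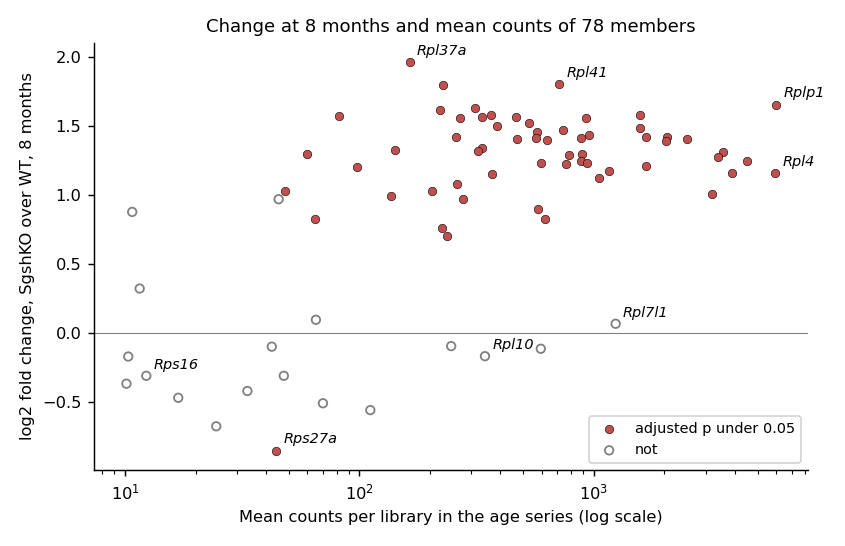
Log2 fold change of SgshKO over WT at 8 months for each of 78 members against its mean counts per library in the age series (log scale); filled points have an adjusted p below 0.05. Members with more than 100 counts lie mostly between 0.70 and 1.97, with Rpl10 and Rpl7l1 among the exceptions, and those with fewer counts spread around 0.

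The low counts of some members bear on these values. The same genes in WT libraries of the age series had levels below 10% of those in the PBS libraries of the ASO series for 38 of 77 members compared, between 10% and 50% for 31, and above that for 8. Rps29 stood at 0.386% of its PBS level and Rps16 at 0.408%, whereas Rpl4 stood at 63.7% and the retroposed copy Rpl37rt at 1026%. The 2 series differ in their annotation and in their animals, which cannot be told apart. Called higher at 8 months were 24 of the 38, 28 of the 31 and 7 of the 8. Transcript length was another property in common, since 57 of 78 members had a listed length below 1000 bases. Of 1256 other genes that short, 349 were called higher and 47 lower at 8 months with a median of 0.30, below the medians of 1.23 and 1.22 for members shorter and longer than that limit.

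The difference between genotypes was larger at 8 months than at 3 weeks for many members. All 16 members called at 3 weeks were called again at 4 and 8 months, 24 were called at 4 and 8 months but not at 3 weeks, and 19 at 8 months alone. In 51 of 78 members the estimate was larger at each later age, a count for which no share over all genes is given. A test of the difference itself (an interaction term) called 36 of 78 members as more increased at 8 months than at 3 weeks and none as less, against 5.98% and 3.26% of all genes. The median of this difference was 0.75. Between 3 weeks and 4 months 1 member, Rps4x, passed (0.69 ± 0.17, adjusted p = 0.029), against 1.63% of all genes in that direction, with a median of 0.34. Between 4 and 8 months 0 members passed edgeR's test (0.391% of all genes in either direction). The unadjusted p was under 0.05 for 16 members, against 1641 of 14309 genes. DESeq2 called 0 members, and limma on log2(TPM + 1) without a filter on low values called 1.

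The largest differences in effect between 8 months and 3 weeks were those of Rpl41 (1.40 ± 0.38 on the log2 scale, adjusted p = 0.019), Rpl21 (1.35), Rpl36al (1.33), Rps18 (1.25) and Rpl37a (1.24). Rps18 went from 7.93 to 25.6 CPM in SgshKO at 3 weeks, with WT at 12.1 to 17.3, to 32.4 to 45.7 at 8 months, with WT at 9.09 to 16.1. Its groups overlapped at 3 weeks and lay apart at 8 months. The count of 36 fell to 21 without WT replicate 1 or WT replicate 2 of 3 weeks, and 18 members passed in each of 18 such fits.

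Within a genotype, the members differed between ages mainly in SgshKO. Each age is a separate set of libraries, so that age and processing cannot be told apart. The summed dissociation genes had WT medians of 7719, 23819 and 9903 CPM at 3 weeks, 4 months and 8 months. In SgshKO the summed neutrophil markers had medians of 6.86, 8965 and 756 CPM. The part these sums play in the differences between ages, including the interaction terms, was not tested. From 3 weeks to 8 months 50 members rose and 1 fell in SgshKO (15.5% and 15.1% of all genes), with a median of 0.62. The largest rises were those of Rpl13 (2.04), Rpl30 (1.49), Rpl23 (1.30), Rps18 (1.09) and Rplp2 (1.08), and Rpl5 fell by 0.46. In WT 1 rose and 2 fell (3.02% and 4.63% of all genes), with a median of -0.07. Rpl13 was the one that rose in WT, from 1.73 to 3.37 CPM at 3 weeks to 5.22 to 8.15 at 8 months, by 1.43 ± 0.34 (adjusted p = 0.0085). Rplp0 and Rps4x each fell by 0.42 in WT, and without WT replicate 3 of 3 weeks only 1 member passed.

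From 3 weeks to 4 months 22 members rose and 2 fell in SgshKO (17.6% and 15.2% of all genes), with a median of 0.33. Rpl13 rose by 1.93, Rpl22l1 by 1.30, Rpl10 by 1.28 and Rpl23 by 1.27, while Rpl10a fell by 0.86 and Rps16 went from 0.581 to 1.04 CPM to no counts. Without SgshKO replicate 2 of 4 months 15 passed. In WT 3 members rose over the same time (2.61% of all genes), among them Rpl10 by 1.28 and Rpl22l1 by 1.17, and leaving out WT replicate 2 of 3 weeks, WT replicate 1 or WT replicate 2 of 4 months left 1, 1 and 0. Rpl10 measured 12.1 to 18.6 CPM in WT at 3 weeks, 28 and 44.5 at 4 months and 19.1 to 27.4 at 8 months, so that the 4-month libraries of both genotypes were highest for this gene.

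Markers of other cells moved with the genotype at every age, and the part they play in the ribosomal protein results was not tested. At 3 weeks, 8 border macrophage markers summed to 83.1 to 109 CPM in SgshKO against 55.2 to 76.2 in WT, 9 neuron markers to 16.6 to 26.2 against 11.3 to 12.6, and 7 astrocyte markers to 191 to 266 against 153 to 165. The 12 microglia markers summed to less, 53275 to 58700 against 60064 to 61368, as did 8 endothelial markers, 55.4 to 60.8 against 65.5 to 81.1. The groups did not overlap for any of these sums. Single markers called higher at that age were 0 of 7 tested border macrophage, 1 of 6 neuron and 1 of 7 astrocyte genes, and 3 of 12 microglia genes were called lower.

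At 4 and 8 months the summed level of 10 neutrophil markers was 1.15 to 7.68 CPM in the WT libraries but 3021 and 14908 in SgshKO at 4 months and 435 to 5852 at 8 months. At 3 weeks it was 1.62 to 6.66 in WT and 1.74 to 30.9 in SgshKO. Elane, Retnlg and Mpo were at 0 in WT at 4 and 8 months. Called higher were 0 of 10 at 3 weeks, 9 at 4 months and all 10 at 8 months. In bulk libraries, more cells of a type and more RNA per cell cannot be told apart. The SgshKO library of 8 months with the most neutrophil signal (replicate 3, 5852 CPM) had a ribosomal protein share of 0.694% and the one with the least (replicate 6, 435 CPM) 0.586%, while the highest share, 0.718%, was that of replicate 7 at 756 CPM.

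Further lists lay apart at these ages. The 8 monocyte markers summed to 332 and 1421 CPM in SgshKO against 8.51 and 11.2 in WT at 4 months, and to 52.1 to 477 against 10.8 to 13.5 at 8 months. Border macrophage markers summed to 71.2 and 124 against a mean of 9.96 at 4 months, and at 8 months to 61.6 to 108 against 15.9 to 32.1, with Clec4n at 0 in WT at both ages. The 10 cell-cycle genes summed to 207 and 544 against 90.2 and 112, and to 120 to 231 against 56.3 to 69.1. Neuron markers were again higher, at 21.6 and 31.4 against 10.3 and 17.5, and at 16.6 to 24.9 against 13.1 to 16.1. Endothelial markers were again lower, at 42.9 and 44.2 against 59.4 and 80.9, and at 39.9 to 61.0 against 67.4 to 74.4. Astrocyte markers overlapped between the genotypes at both ages, with a median of 237 in SgshKO against 354 in WT at 8 months. Microglia markers summed to 34624 and 40314 CPM in SgshKO against 50075 and 55534 in WT at 4 months, and to 40153 to 44962 against 46052 to 54671 at 8 months, where 3 of 12 were called higher and 8 lower.

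Other genes of the translation machinery were counted from lists, which overlap. Eif3h, Eif4b and other initiation factors are also in the list of the TOP class, and Npm1 is also in the assembly list. Eif4b and Eif4e are also among the regulators, so a call can be counted in several lists. Of 3 tested genes for ribosomal proteins that the symbol rule misses 2 were higher at 8 months, among them Rack1, a scaffold on the small subunit, by 1.06. Of 22 translation factors and other mRNAs of the TOP class, 17 were higher and 2 lower (median 0.81), among them Eef1a1, which delivers tRNA, at 1.45, Eef1b2 at 1.35, Eif3h at 1.15 and the intermediate filament gene Vim at 3.70. Over all genes tested 21.6% were called higher and 18.9% lower at that age. At 3 weeks 9 of these 22 were higher and at 4 months 13, with none lower, where 5.31% and 10.3% of all genes were called higher.

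The genes for the making of ribosomes had a median near 0. Of 89 genes for ribosome assembly and rRNA synthesis 4 were higher and 20 lower at 8 months (median -0.09), with Nop10 at 0.99 and Npm1 at 0.89 higher and the rRNA methyltransferase Dimt1 at -0.69 and Taf1a, a factor of RNA polymerase I, at -0.68 lower. Of 36 initiation factors 11 were higher and 2 lower (median 0.12), and of 27 genes for mTORC1, Larp and Myc regulators 4 were higher and 4 lower, with Mycl, a Myc family gene, at -4.28 and the mTORC1 target Eif4ebp1 at 0.55. Of 76 mitochondrial ribosomal proteins 14 were higher and none lower (median 0.17), after 0 at 3 weeks and 1 higher and 4 lower at 4 months. At 8 months 21.6% of all genes tested passed as higher and 18.9% as lower. The 20 of 89 assembly genes called lower and the 14 of 76 mitochondrial ribosomal proteins called higher lay near these shares. The opposite directions lay well below them, with 4 of 89 assembly genes higher and none of the mitochondrial ribosomal proteins lower.

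Members with and without the tract at the annotated start were counted apart, with no test of the difference. Such a run began within 10 bases of a listed start in 36 of 62 genes, so a member counted as without it may still carry a tract. At 8 months 10 of 13 members with it were called higher (median log2 fold change 1.20) and 34 of 46 without it (1.23). At 4 months the counts were 4 of 13 and 23 of 46, with medians of 0.89 and 0.78, and at 3 weeks 0 of 13 and 11 of 46, with medians of 0.35 and 0.45. Over all genes 21.6%, 10.3% and 5.31% were called higher at 8 months, 4 months and 3 weeks. Of the members whose windows are printed above, Rps6 and Rpl35a rose by 1.20 and 1.58 at 8 months. Rps4x and Rps2, with no tract at the annotated start, rose by 1.42 and 1.45, but in the Rps2 window such a run begins within 10 bases of the start.

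In the WT ASO libraries the members took a larger mean share of counts after each ASO than after PBS, and the share also varied with the grp number of the titles. In grp 1 to 4 the share was 1.56%, 1.47%, 1.54% and 1.43% after PBS, 1.81%, 1.92%, 1.68% and 1.34% after the control ASO, and 2.16%, 2.25%, 1.99% and 1.55% after the Mitf ASO. It was 2.12%, 2.04%, 1.65% and 1.59% after the Tfeb ASO and 2.03%, 1.92%, 2.21% and 1.59% after the Tfe3 ASO. The grp 4 library was the lowest in every one of these groups. Compared within grp, the control ASO lay above PBS in grp 1, 2 and 3 and below it in grp 4, and the Mitf ASO lay above the control ASO in all 4. The grp number was a term of the model, and the labels do not say what it stands for.

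The control ASO was first set against PBS. There 0 of 81 members and 0 of 10277 genes passed edgeR's test, and DESeq2 called 0 members. The unadjusted p was under 0.05 for 35 members, against 415 of the 10277 genes. The median log2 fold change over the 81 members was nevertheless 0.17, against -0.00 over all genes, and 79 of 81 estimates were positive. The comparisons below share the libraries of the control ASO.

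After the Mitf ASO, 42 of 81 members were higher than after the control ASO and none lower, against 5.77% of all genes called higher. The median log2 fold change was 0.27, a 1.21-fold difference, and 80 of 81 estimates were positive, against a median of -0.01 over all genes. Called were 24 of 43 large-subunit genes, 16 of 31 small-subunit genes and 1 of 3 stalk genes. In 2 members all Mitf libraries lay above all control libraries, against 4.07% of all genes. Without grp in the model 1 member passed. Leaving out the Mitf library of grp 2 left 6, that of grp 1 left 13 and that of grp 3 left 16, and leaving out the control library of grp 1, 3 or 4 left 12, 18 and 10.

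Rps2, a small-subunit protein near the entry of the mRNA channel, was the 1 member called under every setting. It measured 270, 287, 271 and 230 CPM after the control ASO in grp 1 to 4, 243, 239, 246 and 237 after PBS, and 386, 393, 359 and 321 after the Mitf ASO. The Mitf libraries lay above all others of these groups, and the log2 fold change was 0.46, SE 0.06 (adjusted p = 0.00011). Rpl22l1, the Rpl22 paralog, had the largest estimate, 0.52 ± 0.13 (adjusted p = 0.013), from 12.9, 9.45, 12 and 6.57 CPM to 17.4, 14.3, 15.2 and 10.7, higher within each grp. Rpl36a rose by 0.45, Rpl23 by 0.38 and Rpl38 by 0.38. Rplp0 rose by 0.28 (adjusted p = 0.022), Rpsa by 0.25, Rps6 by 0.29, Rpl7 by 0.22 and Rpl22 by 0.24, whereas Rplp1 (0.26, adjusted p = 0.1), Rpl36al (0.21, adjusted p = 0.19) and Rpl7l1 (-0.04, adjusted p = 0.7) did not pass.

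After the Tfe3 ASO 5 members were higher (1.46% of all genes). These were Rps7 by 0.34, Rps2 by 0.31, Rps16 by 0.31, Rpsa by 0.29 and Rps4x by 0.27. The median over the 81 members was 0.25, and 73 of 81 had an unadjusted p under 0.05, against 1711 of 10277 genes. DESeq2 called 25, no member passed without grp in the model, and 0 or 1 member passed in 7 of the 8 fits that left out a library. After the Tfeb ASO 1 member, Rps2, was higher (0.28 ± 0.06, adjusted p = 0.045, 0.564% of all genes), with a median of 0.17, and none passed without grp. Rps2 measured 349, 351, 294 and 290 CPM after the Tfeb ASO and 321, 321, 369 and 299 after the Tfe3 ASO, above the control library of the same grp each time.

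The 3 ASOs were also compared with each other. Between the Mitf and Tfe3 ASOs 0 of 81 members passed edgeR's test (3.76% of all genes in either direction) and DESeq2 called 0. An unadjusted p under 0.05 was found for 1 member, against 1621 of 10277 genes. Between the Mitf and Tfeb ASOs 0 passed (3.53%) and DESeq2 called 2, with an unadjusted p under 0.05 for 11 members and 1829 genes. Between the Tfeb and Tfe3 ASOs 0 passed (1.62%) and DESeq2 called 1, with an unadjusted p under 0.05 for 5 members and 1935 genes. The medians of the 3 differences were 0.02, 0.10 and -0.07. For Rps2 the Mitf and Tfe3 ASOs differed by 0.15 ± 0.06 (adjusted p = 0.21).

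**Figure D5:**
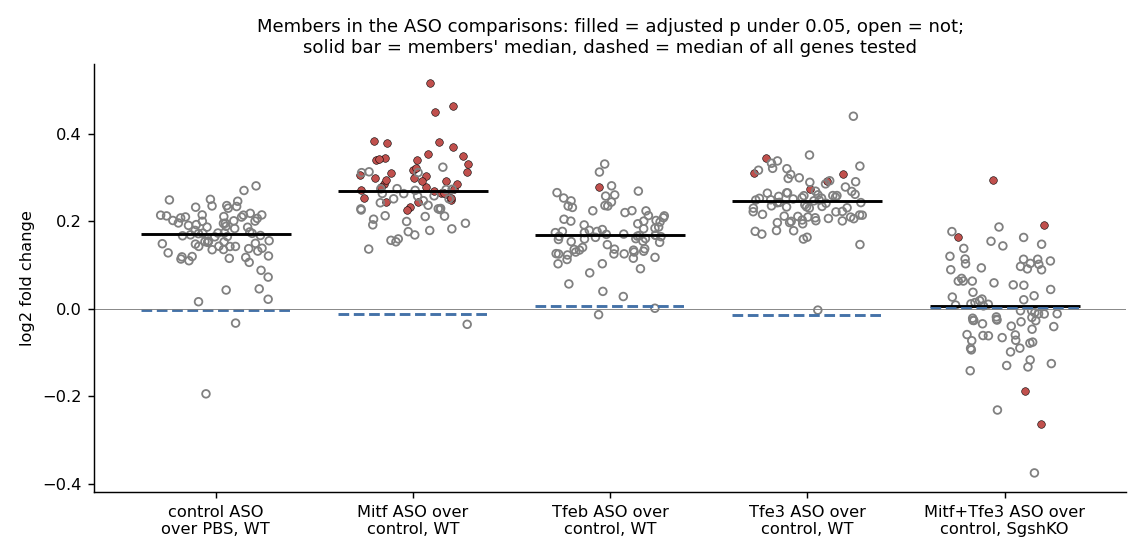
Log2 fold change of each member in the 4 WT ASO comparisons and in the SgshKO comparison; filled points have an adjusted p below 0.05, solid bars are the members' medians and dashed bars the medians of all genes tested. The members' medians are 0.17, 0.27, 0.17, 0.25 and 0.01, and the 4 WT comparisons share control libraries.

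The other lists, which overlap as described above, were counted after the Mitf ASO too, where 5.77% of all genes were called higher. Of 22 mRNAs of the TOP class 13 were higher and none lower (median 0.23), of 36 initiation factors 5 and none, of 88 assembly genes 4 and none, and of 78 mitochondrial ribosomal proteins 0 passed in either direction. Of 26 mTORC1, Larp and Myc regulators 2 were higher and 2 lower. Among the members, 5 of 13 with a tract at the annotated start were called (median 0.26) and 26 of 48 without one (0.27). None of the 10 neutrophil markers is listed in this table, from which genes with low counts had been removed.

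In SgshKO the combined Mitf and Tfe3 ASOs gave member levels close to those after the control ASO. Their share of counts was 1.80% ± 0.216 (SD, n = 8) after the control ASO and 1.79% ± 0.229 (n = 8) after the combination, with ranges of 1.52% to 2.08% and 1.44% to 2.05%. Within grp 1 it was 1.82%, 2.08%, 1.91% and 2.06% against 2.05%, 1.97%, 1.97% and 1.90%, and within grp 2 1.52%, 1.69%, 1.78% and 1.53% against 1.48%, 1.74%, 1.74% and 1.44%. The grp 2 libraries of both treatments lay below the grp 1 libraries of both. Of 83 members 3 were higher and 2 lower (4.84% and 4.5% of all genes), and the median was 0.01. The unadjusted p was under 0.05 for 11 members, against 2675 of 10589 genes.

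Rpl29, a large-subunit protein, was higher by 0.19 ± 0.06 (SE, adjusted p = 0.037), with 121 to 147 CPM after the control ASO and 122 to 173 after the combination, and Rpsa by 0.16 ± 0.05 (adjusted p = 0.031). Rpl22l1 was lower, with 29 to 47.4 CPM after the control ASO and 29.7 to 37.7 after the combination (-0.26 ± 0.08, adjusted p = 0.046), as was Rpl15 (-0.19 ± 0.06, adjusted p = 0.047). The groups overlapped for each of these genes, no member passed without grp in the model, and none passed in every fit that left out 1 library. Rps2, called in all 3 single ASO comparisons in WT, had an estimate of 0.10 (adjusted p = 0.1), and the difference between the WT and SgshKO comparisons was not tested, since they lie in separate tables. The neutrophil markers listed there (6 of 10) summed to 0.996 to 42.3 CPM in grp 1 and 71.3 to 564 in grp 2, across both treatments, and their part in the lower grp 2 shares was not tested. Rps12l1, a retroposed copy that met the rule in this table alone, had a mean of 428 CPM after the control ASO and 390 after the combination (-0.13, adjusted p = 0.35).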

How the data were processed

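PolyA RNA of sorted microglia was sequenced in 58 libraries, 22 in the age series, 20 in WT ASO mice and 16 in SgshKO ASO mice. The authors deposited raw counts per gene for each of these sets, TPM values for the age series per the file headers, and a normalised, batch-corrected signal for both ASO sets, whose method is not given in the sources used here. The submitters' processing notes name STAR 2.5.3a, kallisto 0.44.0, HOMER 4.11 and DESeq2 1.36.0 in R 4.2.3 with build mm10, without saying which step used which, and the treatment of reads that fit several gene copies is not given. The age table lists 1 RefSeq transcript per gene, and the ASO tables list Ensembl genes without those of low counts.

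Counts were fitted per table with edgeR 4.0.16 in R 4.3.3 (TMM scaling, filterByExpr with a minimum count of 10, quasi-likelihood F test, Benjamini-Hochberg adjustment over all genes tested, threshold 0.05), by group in the age series and with the grp number as a term in the ASO tables. The SE of a log2 fold change was its size divided by the square root of F. TPM and signal values were used only for levels per length and as alternatives, in limma 3.58.1 on log2(TPM + 1) or log2(signal + 1), and DESeq2 1.42.0 was a further alternative on the counts. The fits were tested on simulated counts with the same spread setting for every gene and no grp or replicate effect. That test does not bear on calls that depend on the grp term. Deviations of libraries with the same number from their group means correlated at 0.0514 to 0.720 over genes in the WT ASO table, with a median of 0.409, against a median of -0.138 for different numbers. In the SgshKO ASO table the range for the same number was 0.0848 to 0.622 in grp 1 (median 0.281) and 0.0178 to 0.120 in grp 2 (median 0.103). For different numbers the medians there were -0.119 and -0.0158. The main fit of that table had a term for grp only, and a replicate term was an alternative. In the age series the range for the same number was -0.175 to 0.155, and the numbers were not taken to pair libraries. PBS replicate 4 is grp 4 by its title and grp 3 by its column, and was put in grp 4.

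The members, the gene lists and the tests were chosen with earlier results of these data known. Named in each comparison were up to 5 called members in each direction with the largest change, every called member where 10 or fewer passed, the stalk genes, Rpsa, Rps6, the paralog pairs, Rps19bp1, the 3 highest and 3 lowest members per length (Rplp1, Rps9 and Rpl4; Rps16, Rpl11 and Rpl24) and up to 4 genes of each other list. Genes that the rule names and the text does not are not reported here, though they stay in the counts. Alternatives were other scalings, filters, tools and units, the replicate or grp term, a covariate of sex-linked genes and leaving out each library.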

Additional observations from a re-analysis of the deposited data

Results flagged for a closer look

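The difference between SgshKO and WT was itself tested between ages, and the results that passed are given here because the effect differed between groups. From 3 weeks to 4 months it differed for 1 member, Rps4x, by 0.69 ± 0.17 on the log2 scale (SE, edgeR's quasi-likelihood test, adjusted p = 0.029). From 3 weeks to 8 months it differed for 36 of 78 members, each time toward a larger difference at 8 months. Among members described above, this difference of differences was 0.69 for Rplp0, 0.93 for Rplp1, 0.92 for Rps4x, 0.71 for Rpl4 and 0.80 for Rpl22, with adjusted p-values of 0.0048, 0.017, 5.4e-05, 0.00027 and 0.0013. The largest were 1.40 for Rpl41, 1.35 for Rpl21, 1.33 for Rpl36al, 1.25 for Rps18 and 1.24 for Rpl37a, with adjusted p-values of 0.019, 0.022, 0.034, 0.014 and 0.029. For Rpl36al the estimate was 0.00 at 3 weeks and 1.33 at 8 months. For Rplp2 the difference was 0.70 and did not pass (adjusted p = 0.24).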

How the results depend on the processing

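No count of called members changed direction under any alternative. At 8 months 57 to 62 members were called under other scalings, filters and tools and 58 to 61 when 1 library was left out, and the median log2 fold change stayed between 1.08 and 1.27. Without the 2 SgshKO libraries highest in neutrophil markers, a choice made after the data were seen, 58 were called, but the other 5 still held 435 to 819 CPM of these markers, so that this fit does not bear on them. Counts that moved by more than 1.5 times are given with the cause not tested. At 3 weeks 27 members were called without a filter on low counts and 8 by limma on log2(TPM + 1) without a filter. For the difference in effect between 3 weeks and 4 months, 2 were called with DESeq2's size factors, without a filter, and by limma on log2(TPM + 1) or log2(TPM + 0.1), and 3 by DESeq2 and by limma without a filter. Between 4 and 8 months limma without a filter called 1. In WT from 3 weeks to 8 months 5 were called without a filter and 1 with Ddx3y minus Xist as a covariate, and from 3 weeks to 4 months 5 by DESeq2 and by limma on log2(TPM + 1). For the Mitf ASO, with no replicate block 1 member was called in place of 42. For the Tfeb ASO 0 were called with DESeq2's size factors, with TMM factors computed without the ribosomal protein genes and with no replicate block. For the Tfe3 ASO 25 were called by DESeq2, 11 with PBS replicate 4 in grp 3, 9 from the batch-corrected signal and 0 with no replicate block. DESeq2 and the batch-corrected signal each called 2 between the Mitf and Tfeb ASOs and 1 between the Tfeb and Tfe3 ASOs. For the combination in SgshKO 0 were called without the grp term, 8 from the batch-corrected signal and 5 with a replicate block. With a replicate block in the age series 14, 37 and 58 members were called at 3 weeks, 4 months and 8 months, and no count there moved by more than 1.5 times.

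Leaving out 1 library at a time gave 7 to 38 members at 3 weeks, 20 to 24 at 4 months, 0 to 2 for the change of effect by 4 months and 21 to 41 by 8 months, 1 to 3 and 0 to 2 in WT by 8 and 4 months, 44 to 52 and 15 to 28 in SgshKO by 8 and 4 months, 6 to 43 for the Mitf ASO, 0 to 1 for the Tfeb ASO, 0 to 6 for the Tfe3 ASO, 0 to 1 between the Tfeb and Tfe3 ASOs, and 0 to 5 for the combination. The single call for the change of effect by 4 months, Rps4x, was lost without any 1 of the 4-month libraries and without WT replicate 1 or 2 of 3 weeks. The call for the Tfeb ASO was lost without each of 7 of its 8 libraries. Precision was limited by counts below 100 for 19 of 78 members in the age series and by 2 libraries per group at 4 months.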

Other observations

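Rpl22l1 had different levels in the 3 tables, which were normalised separately and are only set side by side here. It stood at 5.67 to 9.09 CPM in WT at 8 months, at 6.57 to 12.9 in WT after the control ASO and at 29 to 47.4 in SgshKO after the control ASO. The genotypes are not compared across these series. Within the age series Rpl22l1 had WT means of 19.1, 43.6 and 21.7 TPM at 3 weeks, 4 months and 8 months. Its SgshKO means were 31.1, 76.7 and 40.2 TPM. Rpl22, its paralog, rose in SgshKO at all 3 ages of the age series.

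The ratio of small-subunit to large-subunit counts, again without the stalk genes, paralogs and retroposed copies, was 0.833 ± 0.0166 (SD, n = 4) after PBS in WT. It was 0.841 ± 0.0118 (n = 4) after the control ASO and 0.845 ± 0.0132 (n = 4) after the Mitf ASO in WT. In SgshKO it was 0.989 ± 0.0402 (n = 8) after the control ASO and 0.950 ± 0.0315 (n = 8) after the combination, with overlapping ranges of 0.940 to 1.04 and 0.911 to 1.01. Single members stood at unlike levels in the WT and SgshKO ASO tables. Rps12 measured 260 CPM after PBS in WT and 20.2 after the control ASO in SgshKO, and Rpl37rt 3.08 and 77.0. The ratios of the WT and SgshKO ASO libraries are therefore not compared.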
